A study of Homo sapiens with 4 samples.

Results

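Clustered protocadherins were examined as all genes on chromosome 5 whose symbol begins with PCDHA, PCDHB or PCDHG. The rule found 61 gene identifiers with 60 symbols among the 77973 identifiers of the gene table. They comprised 16 alpha, 20 beta and 24 gamma identifiers and the antisense gene PCDHB1-AS1. Of these, 53 were protein-coding by RefSeq and 7 were pseudogene identifiers. The extended annotation gave them 169 transcripts, 12 of which were unannotated.

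Clustered protocadherins are cadherin-like cell surface proteins that give single neurons an adhesive identity, so that branches of the same neuron can recognise and avoid each other. Each alpha or gamma gene has its own promoter and a large variable first exon, which is spliced to constant exons shared by the whole cluster. Beta genes lack constant exons and are mostly 1 large exon. CTCF and cohesin loop a distant enhancer to the promoter that is used, and methylation of CG dinucleotides in a promoter blocks that choice. The C-type genes (PCDHAC1, PCDHAC2, PCDHGC3, PCDHGC4 and PCDHGC5) lie closest to the constant exons and are known to be less subject to random choice.

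The cells were cortical neurons derived from the established human iPSC line KOLF2.1J, and their polyadenylated RNA was read as full-length cDNA on the PacBio platform (Iso-Seq). All 4 libraries came from a line that carries doxycycline-inducible NGN2 and a constitutive dCas9-BFP-KRAB repressor for CRISPR interference. All had received a lentiviral guide RNA followed by puromycin selection of the cell pool, and doxycycline at 2 µg/mL. By the protocol, the control library carried a non-targeting guide and the knockdown library a guide against TDP-43, an RNA-binding protein encoded by TARDBP. The azacytidine library carried the non-targeting guide and received 5 µM 5-azacytidine, a cytidine analogue that inhibits DNA methyltransferases, for 72 hours. The combined library carried the TDP-43 guide and received the same azacytidine treatment. Cultures were harvested on day 12 or 15, and which day applies to a library was not resolved. There was 1 library per group, so each test below compares the reads of 2 libraries and not the conditions. Each treatment was read in 2 pairs of libraries that share no library. For azacytidine the first pair was azacytidine against control and the second pair was combined against knockdown. For the knockdown the first pair was knockdown against control and the second pair was combined against azacytidine. A gene was called only where the adjusted p was below 0.05 in both pairs, with the same direction and a log2 ratio of 1 or more in size in each. The azacytidine and knockdown comparisons use the same 4 libraries and are not independent of each other.

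The libraries held between 466337 and 767621 reads assigned to genes. TARDBP had 104 reads in the control, 72 in the knockdown, 73 in the azacytidine and 43 in the combined library. Its log2 ratios were -0.78 and -0.73, in the direction of the label in both pairs and short of the size required for a call. From here on, 4 values in a row are in the order control, knockdown, azacytidine, combined. All 15 neuronal marker genes had reads, with a summed level of 3901, 4127, 4522 and 3636 CPM (reads scaled to the effective library size). The 10 neural progenitor markers summed to 1109 and 913 CPM without azacytidine, and to 216 and 141 with it. Of their 7 tested genes 5 were called lower, where 6.19% of all 13789 genes tested were. The 14 proliferation markers summed to 1548 and 1342 without azacytidine, and to 185 and 170 with it. Of their 13 tested genes 9 were called lower, against the same 6.19%. Of the 12 glial markers, AQP4 and MOG had no read, and the list summed to between 51.9 and 173 CPM. The pluripotency markers summed to 416 to 738 CPM and the fibroblast markers to 66.4 to 146, with DCN at 0. In bulk RNA, fewer cells of a type and less RNA per cell cannot be told apart.

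The promoter stretches below are shown because the methylation-sensitive choice of a variable exon takes place in them. They are 60-base stretches before the start sites that RefSeq gives on GRCh38.p14, plus strand, 5′ to 3′. Capitals mark the occurrence of CGCT chosen for each stretch, and any further occurrence is left in lower case. The letters CGCT belong to the conserved box of many of these promoters. In the C-type stretches capitals mark the letters without naming them a box, although PCDHGC3 and PCDHGC4 hold the gamma word GCCGCTGT described below. The first group holds the member with the most reads in each cluster.
PCDHA12 at chr5:140875232-140875291: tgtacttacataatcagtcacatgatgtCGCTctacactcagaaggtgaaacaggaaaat
PCDHB2 at chr5:141094532-141094591: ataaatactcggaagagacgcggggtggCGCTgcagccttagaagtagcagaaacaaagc
PCDHGB6 at chr5:141407912-141407971: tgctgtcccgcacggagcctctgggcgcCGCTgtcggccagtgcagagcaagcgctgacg
The second group holds the C-type members that averaged 5 reads or more.
PCDHAC1 at chr5:140926208-140926267: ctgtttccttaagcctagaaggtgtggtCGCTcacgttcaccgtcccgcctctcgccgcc
PCDHAC2 at chr5:140966353-140966412: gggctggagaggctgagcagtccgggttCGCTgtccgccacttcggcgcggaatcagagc
PCDHGC3 at chr5:141475868-141475927: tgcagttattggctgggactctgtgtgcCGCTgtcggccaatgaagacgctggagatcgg
PCDHGC4 at chr5:141484940-141484999: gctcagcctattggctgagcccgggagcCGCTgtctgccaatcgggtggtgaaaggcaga
The third group holds 2 neighbouring gamma members, chosen after their values were seen, whose stretches match at 59 of 60 positions.
PCDHGB4 at chr5:141387605-141387664: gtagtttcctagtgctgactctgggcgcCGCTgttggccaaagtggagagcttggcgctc
PCDHGB5 at chr5:141397851-141397910: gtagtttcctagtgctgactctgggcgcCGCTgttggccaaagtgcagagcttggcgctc

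RefSeq promoters, from 250 bases before to 50 after the start, were found for 47 of the 60 member symbols. The letters CGCT, searched on both strands, were in 12 of 13 alpha, 14 of 14 beta and 20 of 20 gamma promoters, and in 70% of all 35116 RefSeq promoters. A CGCT was chosen in the same way, on the printed strand, in 12 alpha, 13 beta and 20 gamma promoters. In each promoter it was the one whose 8-letter word recurred in the most promoters of its cluster. That word was not always the most frequent word of the cluster. For PCDHAC1 it was in 1 promoter of the cluster, and for PCDHB1 and PCDHGB7 in 2. The distances that follow include such occurrences and are not those of 1 shared word. The median distance before the start was 55 bases (38 to 95) in alpha, 62 (11 to 105) in beta and 60 (39 to 199) in gamma. The letters around CGCT differed by cluster. The 8-letter word ATGTCGCT, on the printed strand, was in 9 of 13 alpha promoters and in 0.154% of all promoters. GTGGCGCT was in 13 of 14 beta promoters and in 0.638% of all, and GCCGCTGT was in 11 of 20 gamma promoters and in 0.897% of all. None of these words was found in a promoter of another cluster. They are the most frequent words of their clusters, chosen from these same promoters, and they overlap the CGCT letters. AGNNGGC, part of the CTCF site, searched on both strands, was in 2 of 13 alpha, 8 of 14 beta and 6 of 20 gamma promoters and in 64.2% of all promoters.

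The alpha cluster spanned chr5:140786136-141012347 and the gamma cluster chr5:141330514-141512977, with the beta cluster between them at chr5:141051374-141249365 (hg38, all alpha, beta and gamma members on the plus strand). Variable exons of coding genes had a median length of 2530 bases in the alpha and 2598 bases in the gamma cluster. Both clusters had 3 constant exons, of 59, 89 and 2721 bases in alpha and of 59, 89 and 2029 bases in gamma. The first constant exon was chr5:140978949-140979007 in alpha and chr5:141494807-141494865 in gamma. A read that holds only constant exons fits every gene of its cluster, and how the gene table assigns such reads was not given in the sources used here. Gene reads of alpha and gamma members are therefore less certain than the reads that the deposited tables count as full-length for a transcript.

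Of the 61 identifiers, 29 had a mean of at least 5 reads and were tested: 10 alpha, 14 beta and 5 gamma. A total of 7 had no read in any library: PCDHA14, PCDHB1, PCDHB17P, both identifiers of PCDHB18P, PCDHGA5 and PCDHGA7. A count of 0 allows up to 3 reads in a library. The 5 other untested alpha members, PCDHA1, PCDHA3, PCDHA7, PCDHA8 and PCDHA13, had 8 to 14 reads over the 4 libraries. The gamma cluster held most of the rarely read members: 19 of its 24 identifiers were below the minimum, with PCDHGA10 the highest at 18 reads. All tested gamma members were B-type or C-type genes, and no A-type gene reached the minimum. PCDHB1-AS1 had 6 reads over the 4 libraries. Whether counting used the strand is not given, so its reads cannot be told apart from those of the genes it overlaps.

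Per kilobase of the longest annotated transcript (with the constant exons for alpha and gamma genes, single-exon for beta genes), PCDHB2 had the highest level, with a median of 22.6 CPM per kilobase and a range of 17.8 to 27.7 over the libraries. PCDHA12 followed at 17 (12.6 to 23.2), then PCDHB5 at 14.8 (10.3 to 22.7) and PCDHGB6 at 14.4 (10.8 to 20.9). At the other end stood PCDHAC1 at 1.43 (0.352 to 2.85) and PCDHB4 at 1.62 (0.874 to 4.41). Ordered by the median, all 28 neighbouring pairs among the 29 tested members had overlapping ranges over the libraries. The ranges of PCDHB2 and PCDHAC1, first and last in the order, did not overlap. This order depends on the division by length, and whether reads rise with transcript length in these libraries was not tested. Undivided, PCDHB2 and PCDHA12 both had a mean of 52.5 reads, with transcripts of 4089 and 5438 bases.

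**Figure D1:**
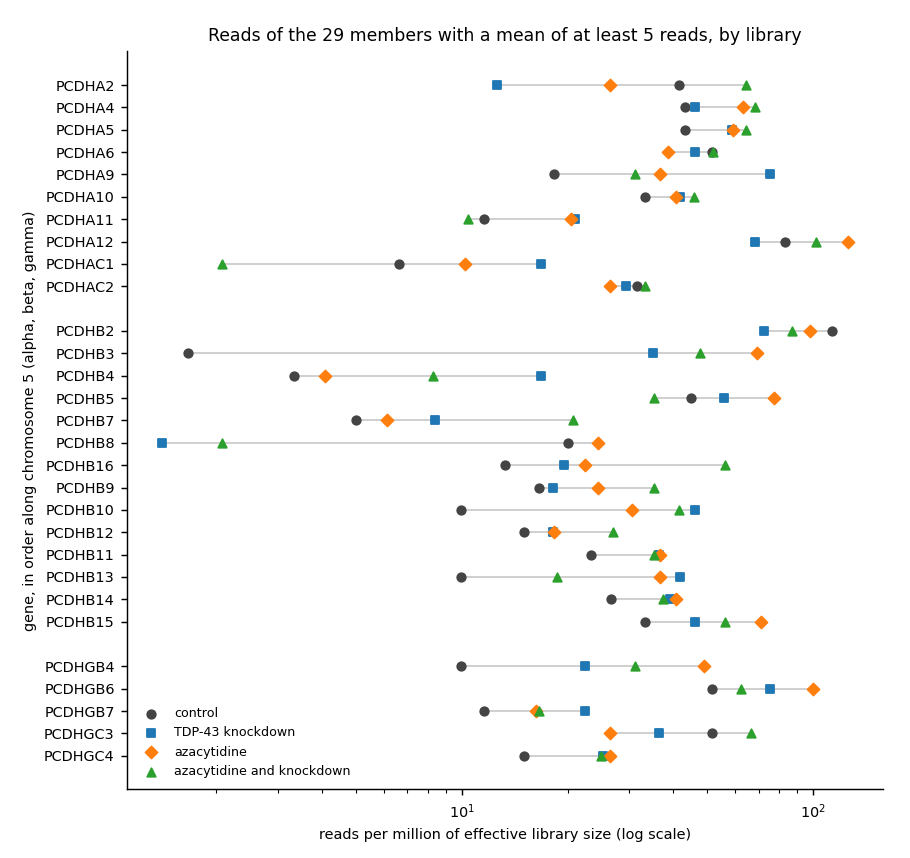
Level in CPM, scaled by effective library size (log axis), of the 29 tested members, 1 point per library and 1 row per gene in order along chromosome 5; grey lines join the lowest and the highest library. The control library is the lowest of the 4 for 19 of 29 members, and the share over all genes was not computed. PCDHB8 has 1 read in each of the libraries with the TDP-43 guide against 12 in each of the others.

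The clusters as a whole were lowest in the control library. Alpha genes summed to 238, 312, 236 and 235 reads, or 396, 436, 481 and 488 CPM. Beta genes summed to 204, 328, 279 and 245 reads, or 339, 459, 568 and 508 CPM. Gamma genes summed to 105, 167, 128 and 113 reads, or 175, 233, 261 and 234 CPM. The control library was thus the lowest in each of the 3 clusters on this scale, and the azacytidine library was the highest for beta and gamma.

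With azacytidine against control, the log2 ratio of the beta total was 0.74, with an exact 95% interval of 0.48 to 1.01. That of the gamma total was 0.58 (0.19 to 0.96) and that of the alpha total 0.28 (0.01 to 0.55). In the second pair, combined against knockdown, the same totals gave 0.15 (-0.10 to 0.39), 0.01 (-0.35 to 0.36) and 0.16 (-0.09 to 0.41). The higher totals of the first pair did not recur at that size in the second pair, and every interval of the second pair included 0. The difference between the pairs was not tested for the totals. With knockdown against control, the ratios were 0.43 (0.18 to 0.69) for beta, 0.42 (0.06 to 0.79) for gamma and 0.14 (-0.11 to 0.39) for alpha. With combined against azacytidine they were -0.16 (-0.41 to 0.09), -0.15 (-0.53 to 0.22) and 0.02 (-0.25 to 0.29). All intervals cover counting error only. The median log2 ratio of all 13789 genes tested was between -0.02 and 0.03 in the 4 pairs. With sums of uniquely assigned counts the alpha ratio of azacytidine against control was -0.04 (-0.37 to 0.29). With sums of full-length counts the beta ratio of that pair was 0.19 (-0.22 to 0.61), and the gamma ratio of combined against knockdown was -0.63 (-1.08 to -0.20). Progenitor and proliferation markers were lower with azacytidine in both pairs, by the sums given above, and their part in the cluster totals was not tested.

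**Figure D2:**
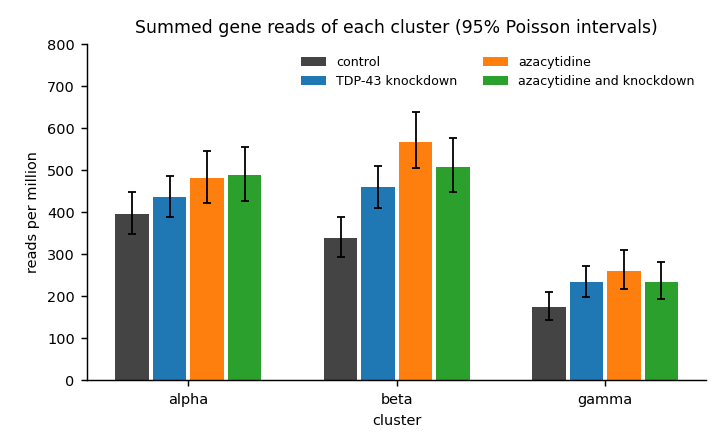
Summed gene reads of the alpha, beta and gamma clusters in CPM, 1 bar per library; error bars are exact 95% Poisson intervals and cover counting error only. The control bar is the lowest in every cluster (396, 339 and 175), and the azacytidine bar exceeds the control bar most in the beta cluster (568 against 339).

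Alpha genes gave 43.5%, 38.7%, 36.7% and 39.6% of the protocadherin reads. Beta genes gave 37.3%, 40.6%, 43.4% and 41.3%, and gamma genes between 19.1% and 20.7%.

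Among single genes, none of the 29 tested members was called with azacytidine by the exact binomial test with Benjamini-Hochberg adjustment. Across all 13789 genes tested, 8.75% were called, with 2.56% higher and 6.19% lower. Without adjustment, at p below 0.05, 9 members passed in the first pair and 6 in the second. The additive edgeR and DESeq2 models also called 0 members. In the first pair alone, 5 members passed the adjusted threshold, all of them higher with azacytidine, where 21.5% of all genes passed in either direction. In the second pair alone, 3 passed, 2 higher and 1 lower, where 33.9% of all genes passed. No member was in both sets. The median log2 ratio of the members was 0.58 in the first pair, where 24 of 29 were positive, and 0.18 in the second, where 17 were positive and 11 negative. The difference between the pairs passed its own test in 5 members, PCDHA2, PCDHA9, PCDHB13, PCDHB3 and PCDHGC3, where 5.63% of all genes passed it.

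PCDHB3, a beta gene at chr5:141100473-141103827, had 1 read in the control library, 25 in the knockdown, 34 in the azacytidine and 23 in the combined library. The control library alone was low, and the other 3 lay within a range of 23 to 34 reads. Its log2 ratio was 4.82 (2.80 to 10.73, adjusted p = 2.14e-09 by the exact binomial test) with azacytidine against control and 0.45 (-0.43 to 1.33, adjusted p = 0.466) with combined against knockdown. Nearly all these reads belonged to the single-exon transcript of 3355 bases and were assigned to it uniquely. Full-length reads of PCDHB3 were only 1, 2, 2 and 1 in the same libraries, so the difference was in reads not counted as full-length. Without PCDHB3, an alternative chosen after its values were seen, the beta ratio of azacytidine against control was 0.56 (0.29 to 0.84).

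PCDHGB4, a B-type gamma gene, had 6, 16, 24 and 15 reads. Again the control library was the lowest. Its log2 ratio was 2.21 (0.96 to 3.87, adjusted p = 0.00155) in the first pair and 0.48 (-0.64 to 1.59, adjusted p = 0.532) in the second, both by the exact binomial test. PCDHGB6, the most read gamma gene, had 31, 54, 49 and 30 reads, with log2 ratios of 0.94 (adjusted p = 0.0263) and -0.27 (adjusted p = 0.599) by the same test. Its direction differed between the pairs. PCDHB15 had 20, 33, 35 and 27 reads, with 1.08 (adjusted p = 0.0334) and 0.28 (adjusted p = 0.669) by the same test. For PCDHB15 only the first pair passed, and it did not pass with sums of transcript counts.

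PCDHB13 had 6, 30, 18 and 9 gene reads. Its log2 ratio was 1.80 (adjusted p = 0.0215) with azacytidine against control and -1.11 (adjusted p = 0.0856) in the second pair, by the exact binomial test. The high value of the knockdown library was not seen in the reads assigned to its transcript of 5061 bases, which were 6, 5, 18 and 9. Full-length reads were 6, 4, 6 and 7 and showed no library apart.

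In the second azacytidine pair, PCDHA2 and PCDHB16 were higher and PCDHA9 was lower. PCDHA2 had 25, 9, 13 and 31 reads, lowest in the knockdown library, and its ratios were -0.62 (adjusted p = 0.397) and 2.30 (adjusted p = 2.34e-05, exact binomial test). PCDHA9 had 11, 54, 18 and 15 reads, highest in the knockdown library. Its ratios were 0.98 (adjusted p = 0.235) and -1.24 (adjusted p = 0.00612) by the same test. In both alpha genes the knockdown library stood apart, in opposite directions. Full-length reads of PCDHA2 were 3, 5, 6 and 8, and those of PCDHA9 were 5, 11, 12 and 9, so neither gene showed the difference of its gene reads there. PCDHB16 had 8, 14, 11 and 27 reads, with 0.73 (adjusted p = 0.583) and 1.49 (adjusted p = 0.00552) by the same test. Its full-length reads were 7, 9, 5 and 9, with a ratio of 0.13 (adjusted p = 1) in the second pair. With uniquely assigned counts that ratio was 1.25 (adjusted p = 0.0656, same test).

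**Figure D3:**
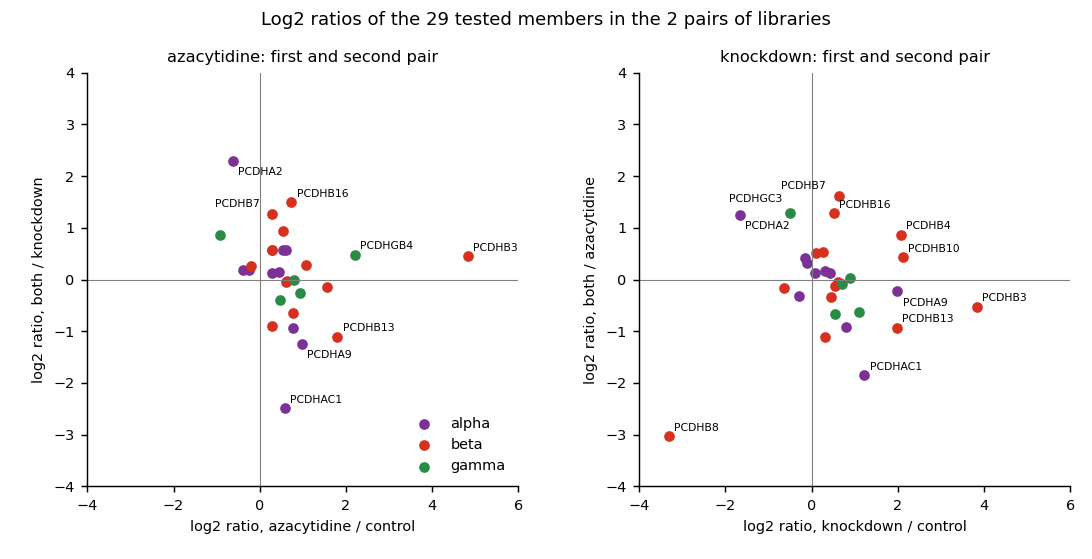
Log2 ratios of the 29 tested members in the first pair (horizontal axis) and second pair (vertical axis) of libraries, for azacytidine on the left and the TDP-43 knockdown on the right; colours give the cluster and both axes are linear in log2 units. With azacytidine, PCDHB3 stands at 4.82 and 0.45, and with the knockdown PCDHB8 stands at -3.31 and -3.03.

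The most read alpha and beta genes passed in neither azacytidine pair. PCDHA12, the most read alpha gene, had 50, 49, 62 and 49 reads, with azacytidine ratios of 0.60 (0.04 to 1.17) and 0.57 (-0.03 to 1.17). PCDHB2 had 68, 52, 48 and 42 reads, with -0.21 (-0.77 to 0.34) and 0.26 (-0.36 to 0.88). Neither gene passed the adjusted threshold in any pair. PCDHA4 had 26, 33, 31 and 33 reads, PCDHA5 had 26, 42, 29 and 31, and PCDHA6 had 31, 33, 19 and 25. PCDHA10 had 20, 30, 20 and 22 reads and PCDHA11 had 7, 15, 10 and 5. The libraries of these alpha genes differed within counting error at this depth.

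No C-type gene was called with either treatment. PCDHAC2 had 19, 21, 13 and 16 reads, PCDHAC1 had 4, 12, 5 and 1, and PCDHGC4 had 9, 18, 13 and 12. None of these 3 passed in any pair. PCDHGC3 had 31, 26, 13 and 32 reads, lowest in the azacytidine library, and its ratio was 1.29 (0.36 to 2.38, adjusted p = 0.0433, exact binomial test) with combined against azacytidine. Full-length reads of PCDHGC3 were 6, 16, 9 and 7 and did not show the azacytidine library as the lowest. Without PCDHGC3, an alternative chosen after its values were seen, the gamma ratio was 0.93 (0.49 to 1.37) with azacytidine against control and -0.48 (-0.91 to -0.06) with combined against azacytidine. PCDHGC5 had 4 reads over the 4 libraries.

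The remaining tested beta genes were PCDHB4 (2, 12, 2 and 4 reads), PCDHB5 (27, 40, 38 and 17), PCDHB7 (3, 6, 3 and 10) and PCDHB9 (10, 13, 12 and 17). PCDHB10 had 6, 33, 15 and 20 reads, PCDHB11 had 14, 26, 18 and 17, PCDHB12 had 9, 13, 9 and 13, and PCDHB14 had 16, 28, 20 and 18. The last tested gamma gene, PCDHGB7, had 7, 16, 8 and 8 reads. In the beta cluster the control library was the lowest on the same scale for 11 of 14 tested genes. It was the lowest for 4 of 10 alpha and 4 of 5 gamma genes. The share of all genes that were lowest in the control library was not computed, so these counts cannot be read as a trait of the clusters.

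With the TDP-43 knockdown, 1 of the 29 members was called by the exact binomial test, against 0.754% of all genes, 0.392% higher and 0.363% lower. That member was PCDHB8, a beta gene, which was lower in both libraries with the TDP-43 guide. It had 12 reads in the control, 1 in the knockdown, 12 in the azacytidine and 1 in the combined library. The groups with and without the guide did not overlap, which the rule for a call makes nearly certain. Its log2 ratios were -3.31 (-9.25 to -1.08, adjusted p = 0.012) and -3.03 (-8.98 to -0.80, adjusted p = 0.0376) by the exact binomial test. With no minimum the ratios were the same, at adjusted p of 0.0309 and 0.103 by the exact binomial test, so the second pair no longer passed. With sums of estimated transcript counts they were -3.25 and -2.89 (adjusted p = 0.0538 and 0.121, same test). The additive edgeR model gave -3.54 (adjusted p = 0.362). PCDHB8 was not tested with a minimum mean of 20 reads or with full-length sums, and the additive DESeq2 model gave -3.70 with no adjusted p. The reads behind the call were few, and those that differed were assigned to a single transcript. ENST00000623995.1 is an annotated 2-exon transcript of 467 bases, with exons at chr5:141177849-141178069 and chr5:141182124-141182369. It had 11, 0, 11 and 0 reads. Against the limit of 3 reads that a count of 0 allows in a library, it was at least 4.36-fold lower in the knockdown than in the control library. Between the combined and the azacytidine library it was at least 3.6-fold lower. The single-exon transcript of 2750 bases had 1 read in each of the 4 libraries. By the assignment of reads, the difference was thus in a short transcript of the PCDHB8 locus and not in the single exon that gives the usual protein. The first exon of the short transcript lies within that single exon, at chr5:141177790-141180539. Whether the molecules had the short form was not tested. Full-length reads were 1, 1, 2 and 1 for the whole gene and did not separate the libraries.

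In single pairs of the knockdown comparison, 6 members passed in the first pair, 4 higher and 2 lower, where 12.7% of all genes passed. In the second pair 2 passed, 1 higher and 1 lower, where 10.2% passed. Without adjustment, at p below 0.05, these counts were 8 and 6. PCDHB3, PCDHB10, PCDHB13 and PCDHA9 were higher in the knockdown than in the control library. PCDHB10 had a ratio of 2.12 (0.94 to 3.76, adjusted p = 0.00168) in the first pair and 0.43 (adjusted p = 0.725) in the second, by the exact binomial test. The median ratio of the members was 0.52 in the first pair and -0.05 in the second.

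Which variable exon was used was read from full-length reads, of which there were 140, 196, 152 and 159 in the alpha cluster. The beta cluster had 93, 124, 113 and 130, and the gamma cluster 56, 121, 89 and 71. The 93 beta reads of the control library included 1 of the antisense gene PCDHB1-AS1, whose single-exon transcript overlaps PCDHB2. It was counted with PCDHB2, whose own transcripts had 19 full-length reads in that library. A few variable exons carried most reads of each cluster, and largely the same exons led in all libraries. PCDHA4, PCDHA5, PCDHA6, PCDHA10 and PCDHA12 were among the 6 most used alpha exons in all 4 libraries, and PCDHB2, PCDHB5 and PCDHB15 among the 6 most used beta genes. PCDHGB4, PCDHGB6, PCDHGB7, PCDHGC3 and PCDHGC4 were among the 6 most used gamma exons in all 4. The 6 most used exons of a library held 84.3% to 89.3% of alpha, 71.9% to 79.2% of beta and 87.5% to 97.2% of gamma full-length reads.

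The number of variable exons in use was compared at equal depth. In the alpha cluster 12, 10, 11 and 12 variable exons had a full-length read. At the smallest library's number of alpha reads, 140, the expected numbers were 12, 9.99, 10.9 and 11.7. For 93 beta reads they were 15, 14.5, 12.8 and 13, and for 56 gamma reads 11, 10.8, 9.51 and 7.58. In beta and gamma the numbers were thus lower with azacytidine in both pairs, while in alpha they were lower in the first pair and higher in the second. These numbers have no replicate check, and by gene reads 18 gamma exons had a read in the control library.

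In the gamma cluster PCDHGB6 was the most used exon in every library, at 35.7% (Wilson interval 24.5 to 48.8), 30.6% (23.1 to 39.3), 29.2% (20.8 to 39.4) and 38% (27.6 to 49.7). PCDHGB4 was at 10.7% (5 to 21.5) and 13.2% (8.31 to 20.4) without azacytidine and at 22.5% (15 to 32.2) and 21.1% (13.2 to 32) with it. The order of PCDHGB4 was the same in both pairs, but the intervals overlapped. PCDHGB5, whose printed promoter stretch nearly equals that of PCDHGB4, had 5 full-length reads in the azacytidine library and 0 in each other library. It had 6 gene reads over the 4 libraries against a mean of 15.25 per library for PCDHGB4. A-type exons together held 12.5%, 7.44%, 5.62% and 7.04% of gamma reads, B-type exons 60.7%, 62%, 71.9% and 69%, and C-type exons 26.8%, 30.6%, 22.5% and 23.9%. C-type exons of the alpha cluster, nearly all PCDHAC2, held 11.4% (7.16 to 17.8) and 9.18% (5.89 to 14) without azacytidine. With it they held 5.92% (3.15 to 10.9) and 6.92% (3.91 to 12). By full-length reads both C-type shares were lower with azacytidine in both pairs, and all their intervals overlapped. By gene reads the gamma C-type share was 39%, 28.1%, 20.3% and 38.9%, so in the second pair its direction was the opposite. By estimated transcript counts the second pair had the opposite direction in both clusters, at 6.82% and 8.12% in alpha and at 27% and 31.4% in gamma.

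**Figure D4:**
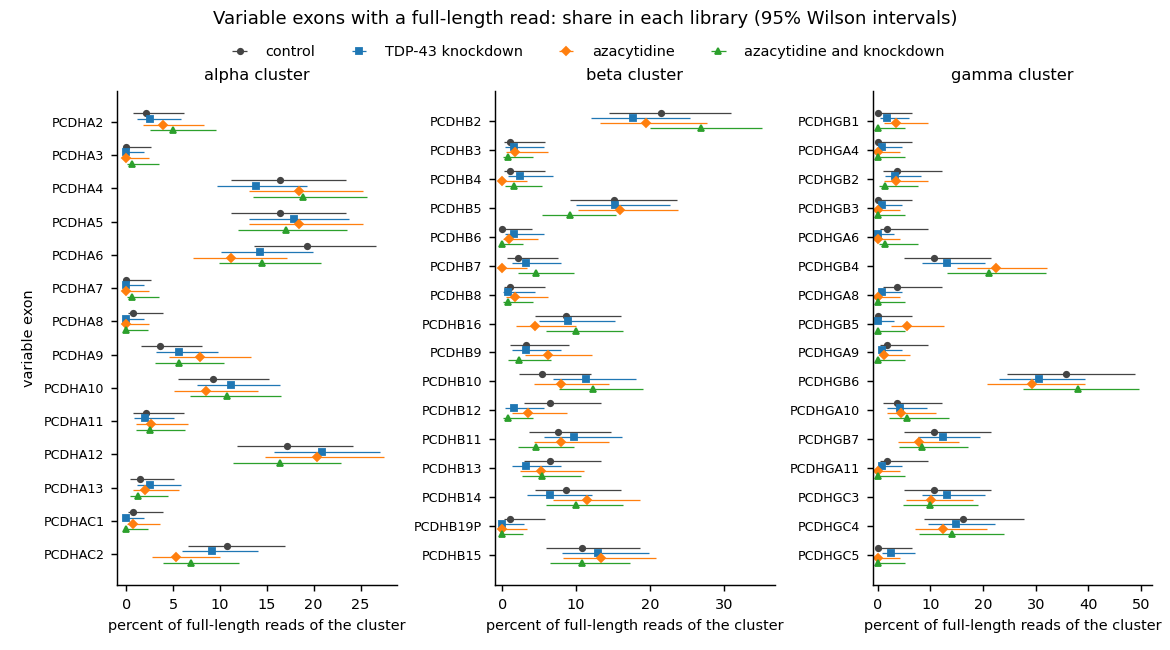
Share of each variable exon among the full-length reads of its cluster in percent (horizontal axis), for exons with at least 1 such read in any library; points are libraries and bars 95% Wilson intervals that cover counting error only. PCDHB2 leads the beta cluster (17.7% to 26.9%) and PCDHGB6 the gamma cluster (29.2% to 38%) in all 4 libraries, while the alpha cluster is divided among several exons of up to 20.9%.

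In the beta cluster PCDHB2 was the most used gene at 21.5%, 17.7%, 19.5% and 26.9%. The control share includes the antisense read described above. PCDHB5 was at 15.1%, 15.3%, 15.9% and 9.23%, and PCDHB15 at 10.8%, 12.9%, 13.3% and 10.8%. In the alpha cluster PCDHA12 was at 17.1%, 20.9%, 20.4% and 16.4%, PCDHA5 at 16.4%, 17.9%, 18.4% and 17%, and PCDHA4 at 16.4%, 13.8%, 18.4% and 18.9%. PCDHA6 was the leading alpha exon in the control library at 19.3% (13.6 to 26.6) and stood at 14.3%, 11.2% (7.1 to 17.2) and 14.5% in the others. The intervals of each of these exons overlapped between the libraries of both azacytidine pairs.

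Most full-length reads that began in a variable exon went on into the constant exons. In the alpha cluster 87.1% (80.6 to 91.7), 83.7% (77.9 to 88.2), 86.5% (80.5 to 91.3) and 90% (84.3 to 93.7) of them were spliced to the first constant exon. In the gamma cluster the shares were 91.1%, 92.6%, 96.6% and 98.6%. Neither cluster differed between libraries beyond its intervals. The exception was 1 gene: 22 of 65 full-length reads of PCDHA10 (33.8%, 23.5 to 46) were spliced to the constant exons over the 4 libraries. The others belonged to ENST00000562220.2, a single exon of 12358 bases at chr5:140855883-140868240. That transcript had 10, 16, 7 and 10 full-length reads. For the other exons with at least 10 full-length reads the share was 78.4% (PCDHA9) to 100%, the next lowest being PCDHA4 at 79.6%, where ENST00000618834.1 of 10557 bases ran on past the variable exon. These measures were chosen after the data were seen.

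The last alpha exon also appeared with an inner intron of 437 bases removed, at chr5:141009729-141010165. This happened in 30.3% (22.9 to 39), 28.1% (21.7 to 35.4), 33.4% (25.9 to 41.7) and 39% (31.5 to 47.3) of full-length alpha reads that reached the constant exons. Both forms were used with many variable exons: 34.4% of PCDHA12, 33.7% of PCDHA6, 31.4% of PCDHA4, 28.2% of PCDHA5 and 41.9% of PCDHAC2 reads had the intron removed. For PCDHA10 it was 0 of 22 reads, and the annotation used for assigning reads holds no PCDHA10 transcript of that form. In PCDHA4, PCDHA5, PCDHA11 and PCDHA13 this form is annotated. In PCDHA2, PCDHA6, PCDHA9, PCDHA12 and PCDHAC2 it was one of the 12 unannotated transcripts of the clusters, 5 of which were of this kind.

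A further 5 unannotated transcripts joined variable exons of neighbouring genes. They linked PCDHA6 with PCDHA7, PCDHA7 with PCDHA8, PCDHB16 with PCDHB9, PCDHB11 with PCDHB12, and PCDHGB4 with PCDHGA8. The transcript of PCDHB16 and PCDHB9 had 7 full-length and an estimated 23 reads over the 4 libraries, that of PCDHB11 and PCDHB12 had 3 and 17.1, and the other joins had 1 full-length read each. In PCDHB5, an unannotated 2-exon transcript with exons at chr5:141135210-141135469 and chr5:141136642-141140949 had an estimated 15.4, 24.4, 20.1 and 6 reads.

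Transcript use within genes could be tested for 20 transcripts of 10 members, and none was called for azacytidine or the knockdown by Fisher's exact test with Benjamini-Hochberg adjustment. Among all 15791 transcripts tested, 1.09% were called with azacytidine and 0.703% with the knockdown. Without adjustment, at p below 0.05, 2 member transcripts passed in the second azacytidine pair and 0 in each of the 3 other pairs. The only one to pass adjustment was the single-exon PCDHA4 transcript ENST00000618834.1. It had an estimated 4.3, 11, 4.18 and 0 reads, and its share of PCDHA4 reads differed by -35.5 percentage points between the combined and the knockdown library (adjusted p = 0.0079, Fisher's exact test). In the first pair the change was -1.59 points.

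Related genes were read from lists. Of 13 CTCF and cohesin genes, 1 was lower with azacytidine and none was higher, where 6.19% of all genes were called lower. That gene was STAG2, a cohesin subunit, with 48, 84, 13 and 9 reads. The list's median ratios were -0.29 and -0.51. CTCF itself had 72, 72, 49 and 58 reads and was not called. Of 21 genes of DNA methylation and repression, 2 were lower, against the same 6.19%. UHRF1, which brings DNMT1 to newly replicated DNA, had 100, 147, 8 and 2 reads, and REST, a repressor of neuronal genes, had 49, 55, 4 and 0. DNMT1 had 81, 130, 47 and 81 reads and SMCHD1, a repressor of clustered protocadherins, 55, 98, 37 and 20; neither was called. The list's medians were -0.14 and -0.11. UHRF1 was lower together with the proliferation markers, and their part in this was not tested.

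Of 19 cytoplasmic partners of these proteins, 1 was lower with azacytidine. These 3 counts are near the share over all genes. The partner gene was PRKCA, a protein kinase, with 19, 51, 4 and 12 reads. Outside the clusters, 3 of 13 nonclustered protocadherins were lower with azacytidine (6.19% of all genes) and none was higher, with medians of -0.74 and -0.85. They were PCDH18 with 54, 88, 1 and 1 reads, PCDH20 with 11, 18, 0 and 0, and PCDH7 with 44, 66, 12 and 6. All 3 separated the libraries by azacytidine without overlap, which the rule for a call makes nearly certain, so it is no separate result. Of 21 tested genes of the other cadherins, 9 were lower and 1 was higher, with medians of -1.29 and -1.34. FAT4 had 23, 39, 0 and 0 reads, CDH13 had 43, 30, 2 and 2, CDH11 had 62, 139, 12 and 16, and CDH10 had 16, 36, 3 and 4. CLSTN3, a synaptic calsyntenin, was the 1 higher gene, with 45, 92, 76 and 136 reads. The members' medians over the clusters, 0.58 and 0.18, stood on the other side of 0 from those of both cadherin lists. No difference between lists was tested. With the knockdown none of these lists had a called gene.

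Of 16 tested neighbours on chromosome 5, 1 was called: RELL2, downstream of the gamma cluster, was higher with azacytidine at 12, 16, 39 and 29 reads. Over all genes 2.56% were called higher and 8.75% in either direction. TAF7, which lies between the beta and gamma clusters, had 23, 16, 29 and 14 reads and was not called. SLC25A2, its neighbour, had no read.

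The number of CG dinucleotides in member promoters was low. The median per promoter was 7 in the alpha, 7.5 in the beta and 7 in the gamma cluster, against 14 over all RefSeq promoters. C-type promoters stood above this, with 27 in PCDHAC1, 15 in PCDHAC2, 18 in PCDHGC3 and 23 in PCDHGC4. In the gamma cluster, A-type promoters had a median of 5, B-type 11 and C-type 20.5. The 5 tested gamma members had a median of 16 (11 to 23), and the 15 others a median of 6 (2 to 14). The direction was the same in alpha, at 7.5 (3 to 27) in 10 tested members and 4 (4 to 7) in 3 others. In beta it was 8 (5 to 12) in 13 tested members and 6 in the 1 other. Across genes, Spearman's rho between CG number and mean reads was 0.59 over 20 gamma promoters, 0.21 over 13 alpha and 0.06 over 14 beta promoters. These points share libraries and the types of gene differ in CG number, so the values are descriptions. PCDHGB4 and PCDHGB5 had 13 and 14 CG dinucleotides and the near-identical stretches shown above.

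**Figure D5:**
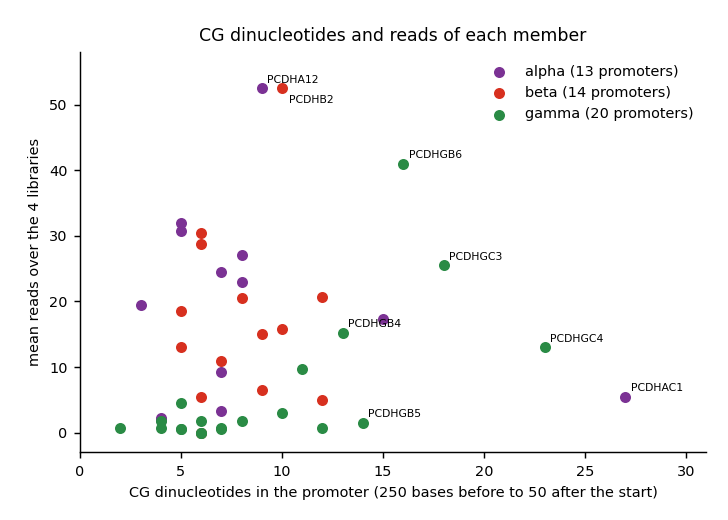
CG dinucleotides in the RefSeq promoter, 250 bases before to 50 after the start, (horizontal axis) and mean gene reads over the 4 libraries (vertical axis) of 47 members, coloured by cluster. Gamma members with more reads have more CG dinucleotides (median 16 against 6). The most read alpha gene, PCDHA12, has 9, the highest alpha number outside the C-type genes. The most read beta gene, PCDHB2, has 10 in a beta range of 5 to 12. PCDHGB4 and PCDHGB5 differ in reads at nearly the same number.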

How the data were processed

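The build was hg38 per the submitters' processing notes, the labels' library names give minimap2, an aligner, and per the file headers the deposited annotation was written by Bambu, which finds transcripts and assigns reads. Versions and settings are not given in the sources used here. The deposited gene table holds estimated counts per gene, and the deposited transcript tables hold estimated counts, full-length counts and counts of uniquely assigned reads. All deposited gene counts were even, so 2 counts were taken as 1 read, and estimated counts were rounded. No column of values was without a library.

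The members and lists were chosen with earlier results of these data known. Members were named where the mean was at least 5 reads, and other lists by their called genes, at most 4 per list. Library sizes were scaled by TMM (edgeR 4.0.16). Log2 ratios used a pseudocount of 0.5 reads. Binomial and Fisher tests (scipy 1.17.1) were adjusted over the whole table, and additive models in edgeR and DESeq2 1.42.0 were alternatives. The difference between pairs was tested with the exact noncentral hypergeometric distribution. Intervals are 95% intervals and, like the limit of 3 reads for a count of 0, cover counting error only: amplified cDNA copies are no independent molecules. The tests were tested on simulated data. Of 87 member transcripts shared with GENCODE 29 by name, 87 had the same exons. Promoters are from RefSeq (GRCh38.p14).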

Additional observations from a re-analysis of the deposited data

Results flagged for a closer look

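For 5 of the 29 tested members the azacytidine log2 ratio differed between the pair with and the pair without the TDP-43 knockdown, by an exact test of the difference itself that was added after the data were seen (adjusted p under 0.05 and a difference of at least 1). Across all 13789 genes tested, 5.63% differed in this way. The differences, with minus without knockdown, were 2.92 for PCDHA2 (adjusted p = 0.00139), -2.22 for PCDHA9 (adjusted p = 0.0222), -2.91 for PCDHB13 (adjusted p = 0.0129), -4.36 for PCDHB3 (adjusted p = 0.00038) and 1.79 for PCDHGC3 (adjusted p = 0.0435), by the exact noncentral hypergeometric test. For PCDHB3 the control library stands apart with 1 read, for PCDHA2 and PCDHA9 the knockdown library with 9 and 54 reads, and for PCDHGC3 the azacytidine library with 13. With full-length reads the differences were -0.03, -1.23, 0.97, -1.24 and -1.45 in the same order of genes, at unadjusted p of 1, 0.317, 0.436, 1 and 0.182 by the same exact test.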

How the results depend on the processing

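No paired analysis was possible because each group had 1 library and the groups share fewer than 2 replicate numbers; for the same reason no library could be left out of a group. No member was called with azacytidine under any of the 11 alternatives. The knockdown call of PCDHB8 was lost (0 members) with no minimum, with estimated or uniquely assigned transcript sums and in the additive edgeR model, where its log2 ratio stayed between -2.85 and -3.54. With a minimum mean of 20 reads and with full-length sums (0 members each) PCDHB8 was not tested, and in the additive DESeq2 model (0 members) its adjusted p was not given. Of all genes, 1207 were called with azacytidine, against 581, 278 and 44 with estimated, unique and full-length sums, 2035 with counts not halved and 203 in the additive DESeq2 model. With the knockdown 104 were called, 54 higher and 50 lower, against 12, 13 and 5 with those sums, 376 not halved, 12 in the additive edgeR and 10 in the additive DESeq2 model. With total counts in place of TMM the split was 36 higher and 73 lower. Transcripts called numbered 172 with azacytidine, against 9 with full-length and 11 with unique counts, and 111 with the knockdown, against 3 and 4. The cause of these shifts was not tested.

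Cluster ratios moved with the count table. With full-length sums, alpha was 0.01 (azacytidine against control), -0.17 (combined against knockdown), 0.53 (knockdown against control) and 0.36 (combined against azacytidine), and beta was 0.19 and 0.49 in the first and last of these pairs. Gamma was -0.63 with combined against knockdown and 1.15 with knockdown against control. With unique sums, alpha was -0.04 with azacytidine against control, a change of direction, and 0.29 with combined against azacytidine, and gamma was 1.02, -0.40 and 1.06 in the first 3 of these pairs. Gamma exons with a read in the control library were 18 by gene counts against 11 by full-length reads, and the C-type gamma share of the combined library was 38.9% against 23.9%, which turns the direction of the second azacytidine pair. Directions of single members that changed were those of PCDHB13 (-0.10 with azacytidine against control by full-length sums; -0.43, -0.39 and -0.48 with knockdown against control by estimated, unique and full-length sums), PCDHA2 (0.70 with knockdown against control by full-length sums) and PCDHGC3 (-0.14 and -0.06 with combined against azacytidine by unique and full-length sums). The differences between pairs changed direction for PCDHA2 (-0.03) and PCDHB13 (0.97) by full-length sums and for PCDHGC3 by unique (-3.45) and full-length (-1.45) sums. Of the 212 other values for the main results, 175 were labelled the same. That label meant a ratio or share inside the main interval, or a count within a set fold of the main count. It did not check the side of a threshold. Without PCDHB3 and PCDHB13 the beta ratio of knockdown against control was 0.22, inside the main interval, but its own interval (-0.05 to 0.49) included 0. Most members had under 50 reads in every library, which limits the precision of their ratios.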

Other observations

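Single transcripts reached far past the variable exon in a few alpha genes. Besides PCDHA10 and PCDHA4, full-length reads of PCDHA9 included 1, 3, 2 and 2 reads of a single-exon transcript of 6900 bases, in the library order used above. In PCDHA5, an unannotated 2-exon transcript of 3152 bases that does not reach the constant exons had 9 full-length reads over the 4 libraries.

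Promoter stretches of other members were also alike, some at unequal and some at similar read numbers. Those of PCDHA6 and PCDHA8 matched at 48 of 60 positions, at a mean of 27 and 2 reads. Those of PCDHA1 and PCDHA2 matched at 40 of 60, at 2.25 and 19.5 reads. By contrast, PCDHB16 and PCDHB13 matched at 45 of 60, at 15 and 15.75 reads. PCDHGA2 and PCDHGA3 matched at 47 of 60, at 0.5 and 0.75 reads. Whether alike stretches go with alike read numbers was not tested. Over all pairs within a cluster the median number of matching positions was 29 of 60 in alpha, 32 in beta and 30 in gamma.

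Reads without a transcript assignment made up 8.4% to 16.2% of alpha, 18.3% to 32.4% of beta and 11.7% to 25.7% of gamma gene reads, against 31.9% to 41.5% over all genes. In the knockdown library, 30 gene reads of PCDHB13 stood against 5 transcript reads.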
